A study of Mus musculus with 21 samples.

Results

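Gene expression in the right lung was compared between day 56 after surgical removal of the left lung (pneumonectomy, PNX) and day 0, before that surgery. The comparison uses 6 of the 21 arrays of the study, chosen by their labelled condition: 3 from day 56 after pneumonectomy and 3 from day 0. In each group 1 array was made from the medial lobe, 1 from the cardiac lobe and 1 from the whole right lung, and arrays were paired by region. Beside them stand 3 arrays of the same regions from day 56 after sham surgery, and the pneumonectomy arrays of days 3, 7, 14 and 28. All samples are right lung of male C57BL/6 mice, with no transgene or drug in the labels; the animals' age is not given in the sources used here. Whether 1 animal, several or a pool gave the 3 regions of a group is left unsaid by the labels. The p-values rest on how far differences between conditions vary from region to region, estimated over all 21 arrays. They do not rest on a spread between animals known to be separate. Values are log2 signals of Affymetrix arrays, and a difference of 1 is a change of 2-fold. Where 3 values are given for a condition, they are the medial lobe, the cardiac lobe and the whole right lung, in that order.

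When a lung is removed from a mouse, the remaining lobes enlarge and add alveoli, with early waves of inflammation and cell division that subside. The lung also holds resident and passing lymphocytes, and its cells carry a basal interferon program. Interferons act through receptors that activate STAT transcription factors; with IRF9, these bind an element in the promoters of antiviral genes. T cells are recognised by the CD3 chains of their antigen receptor, B cells by CD20 and by the class II antigen presentation genes they share with macrophages and dendritic cells.

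Among the 9 arrays of day 56 and day 0, the whole lung array of day 56 after pneumonectomy stood apart. Its interquartile range was 3.39 (log2) and its mean over 59 small RNA genes 9.84, against 3.58 and 8.86 in the whole lung array after sham and 3.76 and 7.77 in that of day 0. Its median correlation with the other 20 arrays was 0.971, against 0.987 to 0.993 for the other 8 arrays of the 3 groups. Lung markers were present in each of the 6 arrays: Sftpc of alveolar type II cells read 13.29 to 13.45 after pneumonectomy and 13.29 to 13.43 at day 0, Ager of alveolar type I cells 12.32 to 12.53 and 12.37 to 12.54, and Cdh5 of endothelium 11.26 to 12.07 and 11.58 to 11.98. Adipoq, a marker of fat, read 7.14 to 7.31 after pneumonectomy and 6.82 to 8.99 at day 0. Myh6, a marker of heart muscle, read 7.45 to 7.90 after pneumonectomy and 7.14 to 7.67 at day 0. The arrays carry no batch label that separates the groups.

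At day 56 after pneumonectomy the lung differed from day 0 in few genes, of which all but 1 read lower. Of 19938 genes, 18 passed limma with Benjamini-Hochberg adjustment at 0.05 (0.0903%). Rbis, a ribosome biogenesis factor, was the 1 gene that rose (0.00502%), by 2.03-fold. The other 17 fell (0.0853%), by 1.41-fold for Irf9 to 3.09-fold for Cxcl9, with adjusted p from 0.014 to 0.0485. Of the 46 gene lists used, the T and NK cell list held Cd3e and Cd3g, the B and plasma cell list Ms4a1, the class II list H2-Oa and H2-Ob, and the interferon response list Cxcl9 and Ifit1. The other 11 genes were in no list and are grouped below by their known roles, after they were seen. In all 17 the 3 arrays after pneumonectomy lay below the 3 of day 0, and 6.43% of all genes had this order. The same arrays chose the 17 genes, so this separation follows largely from the choice. At an unadjusted p under 0.05 there were 2832 genes (14.2%), 1247 higher (6.25%) and 1585 lower (7.95%), and the median difference over all genes was 0.00. The calls depend on single arrays: 0 genes passed without the pneumonectomy cardiac lobe array, without the pneumonectomy whole lung array or without the day 0 cardiac lobe array. All 18 kept their sign in each of these fits, which was nearly set in advance, since each had the same sign in every region. Without the region term in the model 1 gene passed, and in bulk tissue fewer cells of a type and less RNA per cell cannot be told apart.

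**Figure D1:**
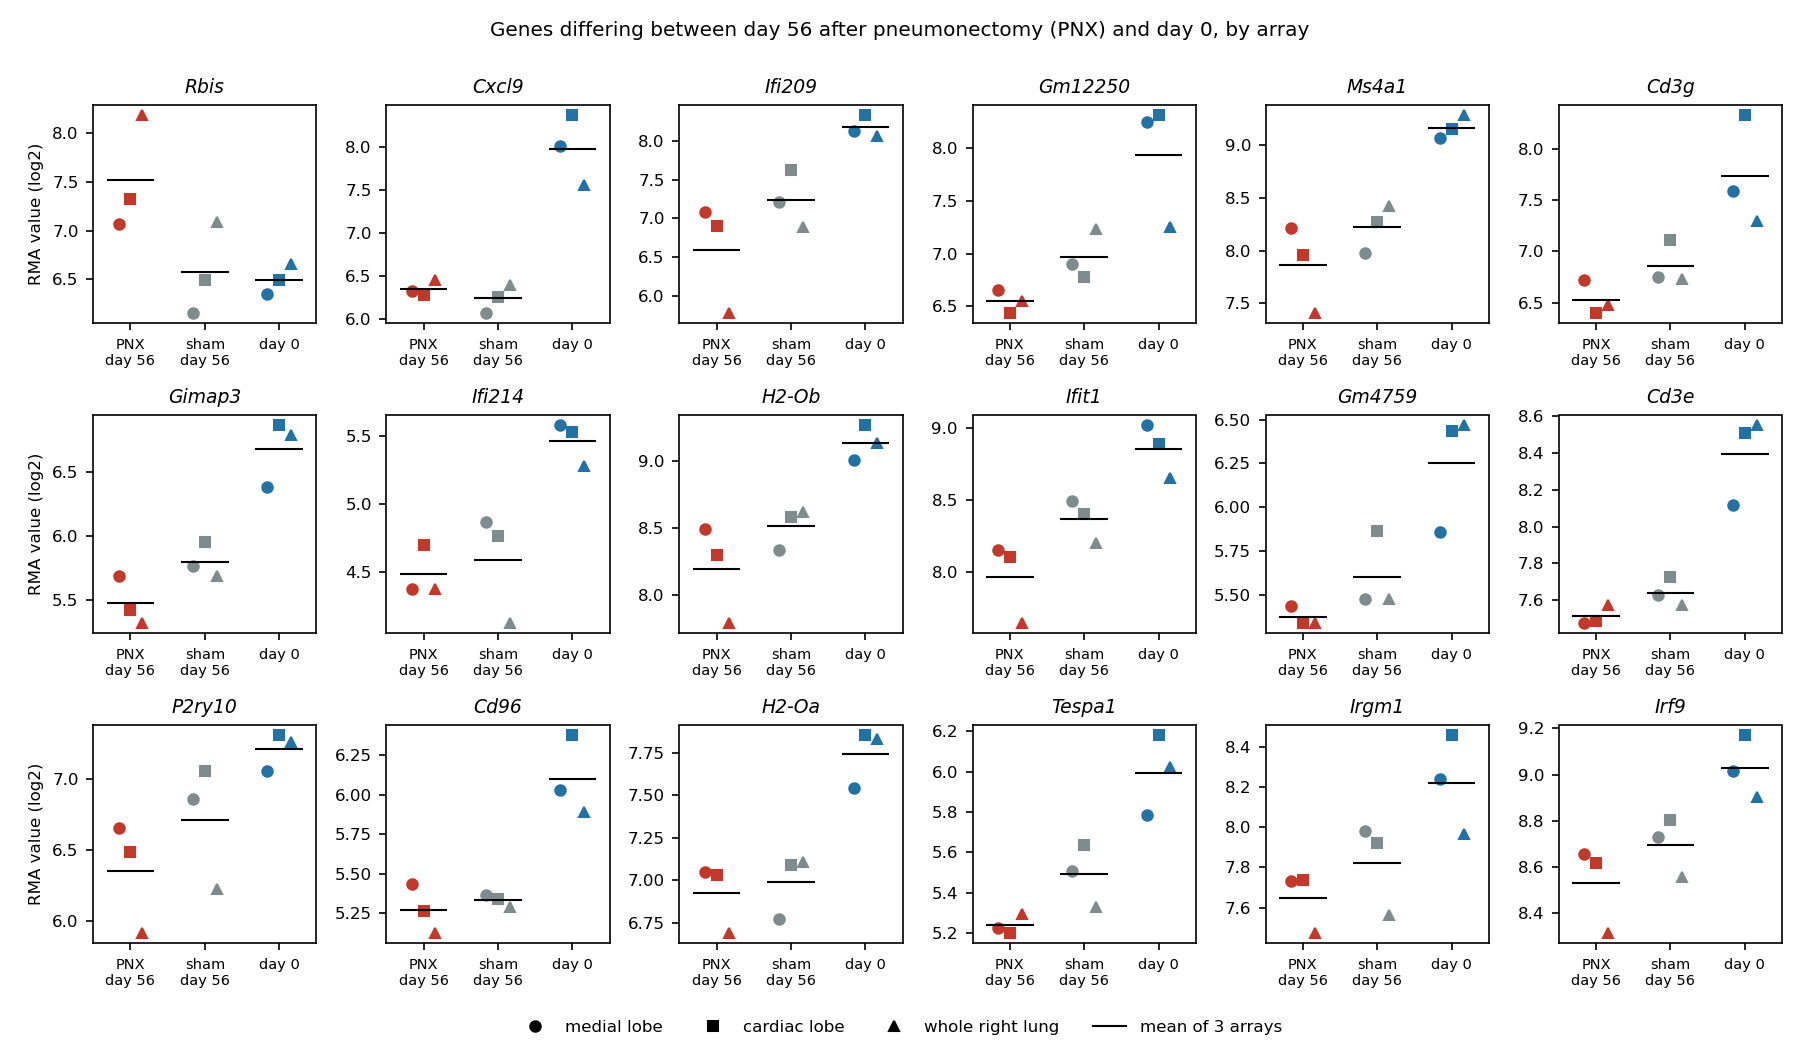
Log2 RMA values of the 18 genes that passed, with a panel per gene, with 3 arrays each for pneumonectomy (PNX) day 56, sham day 56 and day 0. Symbols mark the region and the black line the mean of 3 arrays; the y axes differ between panels. In the 17 panels other than Rbis the PNX arrays lie below those of day 0, and most sham means lie between the other 2 groups.

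Of the 17 lower genes, 7 are known to be induced by interferon or to carry its signal, a grouping made after the genes were seen. Cxcl9 encodes a chemokine that interferon gamma induces and that draws activated T cells. It read 6.32, 6.28 and 6.45 at day 56 after pneumonectomy, against 8.01, 8.37 and 7.55 at day 0, a difference of -1.63 ± 0.28 (SE, adjusted p = 0.041). The 3 pneumonectomy arrays lay close together, all below the 3 of day 0. Ifi209 and Ifi214 encode members of the interferon-inducible p200 family, whose genes lie side by side on chromosome 1. Ifi209 read 7.08, 6.91 and 5.78 after pneumonectomy, against 8.14, 8.33 and 8.06 at day 0 (-1.59 ± 0.25, adjusted p = 0.024). Ifi214 read 4.37, 4.70 and 4.37 after pneumonectomy, against 5.58, 5.53 and 5.28 at day 0 (-0.98 ± 0.12, adjusted p = 0.014). Neither gene's groups overlapped, as the choice of the genes largely set, and the smallest adjusted p of the comparison belongs to Ifi214. Ifi214 is dim, since all these values lie below the array medians, which run from 5.98 to 6.18. Ifi209 was lowest in the whole lung array, where its difference was -2.29.

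A pair of interferon-inducible GTPases on chromosome 11, known from mouse defence against intracellular microbes, also fell. Gm12250, the gene also listed as Irgb10, read 6.66, 6.44 and 6.56 after pneumonectomy, against 8.25, 8.31 and 7.25 at day 0 (-1.39 ± 0.22, adjusted p = 0.024). Irgm1, which regulates other GTPases of the family, read 7.73, 7.74 and 7.47 after pneumonectomy, against 8.24, 8.46 and 7.97 at day 0 (-0.58 ± 0.09, adjusted p = 0.024). Both genes had smaller gaps in the whole lung than in the cardiac lobe. No array of either overlapped between the groups, as their choice largely set. Ifit1, whose protein binds foreign RNA and blocks its translation, read 8.15, 8.10 and 7.64 after pneumonectomy, against 9.02, 8.89 and 8.65 at day 0 (-0.89 ± 0.14, adjusted p = 0.024). Irf9, the DNA-binding subunit of the factor that type I interferon activates, read 8.66, 8.62 and 8.31 after pneumonectomy, against 9.02, 9.17 and 8.90 at day 0 (-0.50 ± 0.09, adjusted p = 0.0485). Irf9 had the smallest difference of the 17 genes. Ifi209, Ifi214 and Gm12250 have near-identical relatives, so which copy their probes read is uncertain.

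The promoters of 4 of these genes carry the core letters of the interferon-stimulated response element, GAAA-NN-GAAA on either strand, a motif chosen after the genes were known. They are shown because 7 of the 17 lower genes are known to be induced by interferon or to carry its signal. The RefSeq table (GRCm38.p6) gave promoters, 250 bases before to 50 after the start, for 14 of the 18 genes. The motif was in a promoter of 4 of the 14 genes, and of 1079 of all 27025 genes in the table (3.99%). Capitals mark it, read 5′ to 3′ on the gene's strand: Gm12250 is chr11:58183593-58183892 on the plus strand, Ifi214 chr1:173535908-173536207 on the minus strand, Ifit1 chr19:34640639-34640938 on the plus strand and Irgm1 chr11:48871371-48871670 on the minus strand.
Gm12250: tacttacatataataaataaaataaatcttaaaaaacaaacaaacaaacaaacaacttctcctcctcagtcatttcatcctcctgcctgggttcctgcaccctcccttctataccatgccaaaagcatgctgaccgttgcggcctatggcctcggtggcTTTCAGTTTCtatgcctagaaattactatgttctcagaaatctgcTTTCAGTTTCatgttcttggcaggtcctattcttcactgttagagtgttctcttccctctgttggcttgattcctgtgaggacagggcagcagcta
Ifi214: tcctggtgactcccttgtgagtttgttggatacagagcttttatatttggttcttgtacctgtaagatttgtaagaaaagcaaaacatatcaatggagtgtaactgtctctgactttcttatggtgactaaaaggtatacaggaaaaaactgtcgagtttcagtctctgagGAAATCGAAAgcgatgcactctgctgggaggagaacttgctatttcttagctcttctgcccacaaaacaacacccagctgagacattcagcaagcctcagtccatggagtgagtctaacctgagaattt
Ifit1: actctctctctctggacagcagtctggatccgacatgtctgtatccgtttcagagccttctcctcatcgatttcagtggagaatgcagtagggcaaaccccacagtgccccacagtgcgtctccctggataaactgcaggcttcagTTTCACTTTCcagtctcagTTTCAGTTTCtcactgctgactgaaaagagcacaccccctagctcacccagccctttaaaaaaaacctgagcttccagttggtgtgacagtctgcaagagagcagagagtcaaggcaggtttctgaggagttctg
Irgm1: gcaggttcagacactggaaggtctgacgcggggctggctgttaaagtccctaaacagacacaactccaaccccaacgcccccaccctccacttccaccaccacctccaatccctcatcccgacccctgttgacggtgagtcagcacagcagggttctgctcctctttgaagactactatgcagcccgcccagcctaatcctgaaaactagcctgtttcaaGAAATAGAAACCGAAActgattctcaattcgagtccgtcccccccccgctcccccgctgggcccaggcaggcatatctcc

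The first bases of the matches lie at -91 and -46 from the start in Gm12250, at -79 in Ifi214, at -104 and -85 in Ifit1, and at -30 and -24 in Irgm1, where the pair overlaps. The windows of Cxcl9, Ifi209 and Irf9 do not hold these letters. A match is a description of the letters in the window and no measure of binding.

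Of a wider list of 20 interferon response genes, 2 fell (Cxcl9 and Ifit1) and none rose. At an unadjusted p under 0.05, 12 were lower, as were 7.95% of all genes. The median difference of the list was -0.38, against 0.00 over all genes, and it was -0.38, -0.43 and -0.33 within the 3 regions. Oasl2, an antiviral protein of the oligoadenylate synthetase family, read 9.20, 9.11 and 9.25 after pneumonectomy, against 9.73, 9.75 and 9.88 at day 0, and just missed the threshold (-0.60 ± 0.12, adjusted p = 0.055). Rsad2, the antiviral enzyme viperin, differed by -0.71 ± 0.16 (adjusted p = 0.12). Both were picked after their values were seen. Without the pneumonectomy whole lung array none of the 20 passed, 13 were lower at an unadjusted p under 0.05 and the median was -0.39. Here and below, the share of all genes at that level was not counted for the fit without this array.

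Genes of T cells formed the next group. Cd3e and Cd3g encode chains of the T cell receptor complex and neighbour each other on chromosome 9. Cd3g read 6.72, 6.40 and 6.47 after pneumonectomy, against 7.59, 8.33 and 7.30 at day 0 (-1.21 ± 0.17, adjusted p = 0.024). Cd3e read 7.48, 7.49 and 7.57 after pneumonectomy, against 8.12, 8.51 and 8.55 at day 0 (-0.88 ± 0.14, adjusted p = 0.024). Both were lower in each region, and the 3 pneumonectomy arrays of Cd3e lay close together. Cd96, a receptor of T and NK cells that binds nectin-like proteins, read 5.43, 5.26 and 5.12 after pneumonectomy, against 6.03, 6.38 and 5.89 at day 0 (-0.83 ± 0.13, adjusted p = 0.024). Gimap3, a GTPase of lymphocyte survival with a near-identical neighbour in its family, read 5.69, 5.42 and 5.32 after pneumonectomy, against 6.38, 6.86 and 6.79 at day 0 (-1.20 ± 0.17, adjusted p = 0.024). Tespa1, which acts in T cell receptor signalling, differed by -0.75 ± 0.11 (adjusted p = 0.024), with 5.20 to 5.29 after pneumonectomy and 5.78 to 6.18 at day 0. Cd96, Gimap3 and Tespa1 are dim: their values after pneumonectomy lie below the array medians, which run from 5.98 to 6.18. P2ry10, a lipid receptor of lymphocytes, differed by -0.86 ± 0.15 (adjusted p = 0.039), with 5.92 to 6.65 after pneumonectomy and 7.06 to 7.31 at day 0. None of these 6 genes overlapped between the groups, which follows largely from their choice on these arrays.

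Of 21 T and NK cell genes measured, 2 fell (Cd3e and Cd3g) and none rose. All 21 differences were below 0, from -1.21 to -0.05, 18 of them at an unadjusted p under 0.05, and the median was -0.61. Cd4, the coreceptor of helper T cells, read 5.83, 5.75 and 5.98 after pneumonectomy, against 6.12, 6.60 and 6.68 at day 0 (-0.61 ± 0.12, adjusted p = 0.055). Gzmb, a granule protease of cytotoxic cells, differed by -0.95 ± 0.20 (adjusted p = 0.082), and Ncr1, an activating receptor of NK cells, by -1.19 ± 0.29 (adjusted p = 0.15). These 3 genes, picked after their values were seen, missed the threshold. None of their arrays overlapped between the groups, an order that 6.43% of all genes had and that such picking favours. Averaged over the list, the arrays read 6.63, 6.48 and 6.66 after pneumonectomy, against 7.16, 7.38 and 7.04 at day 0. Without the pneumonectomy whole lung array none of the 21 passed, 17 were lower at an unadjusted p under 0.05 and the median was -0.72.

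Among genes of B cells and antigen presentation, Ms4a1, which encodes CD20 of mature B cells, read 8.21, 7.96 and 7.41 after pneumonectomy, against 9.07, 9.15 and 9.28 at day 0 (-1.31 ± 0.23, adjusted p = 0.042). H2-Oa and H2-Ob encode the chains of H2-O, which restrains peptide loading on class II molecules in B cells, and both lie on chromosome 17. H2-Oa read 7.05, 7.03 and 6.69 after pneumonectomy, against 7.54, 7.85 and 7.83 at day 0 (-0.82 ± 0.14, adjusted p = 0.037). H2-Ob read 8.50, 8.30 and 7.79 after pneumonectomy, against 9.01, 9.27 and 9.14 at day 0 (-0.94 ± 0.17, adjusted p = 0.046). In all 3 genes the whole lung array after pneumonectomy was the lowest. No array overlapped between the groups, as the choice of the genes largely set. Of 17 B and plasma cell genes 1 fell (Ms4a1), 12 were lower at an unadjusted p under 0.05 and 16 were below 0, with a median of -0.59. The 1 member above 0 was Jchain, which joins the units of secreted IgA and IgM and was higher at an unadjusted p under 0.05 (2.0 ± 0.60, adjusted p = 0.24), a difference larger in size than any fall of the list. Bank1, a scaffold of B cell receptor signalling picked after its values were seen, read 7.25, 7.02 and 7.17 after pneumonectomy, against 7.75, 8.12 and 8.35 at day 0 (-0.92 ± 0.18, adjusted p = 0.062). Without the pneumonectomy whole lung array none of the 17 passed, and the median was -0.72.

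Of 9 class II genes measured, 2 fell (H2-Oa and H2-Ob) and 4 were lower at an unadjusted p under 0.05. In all 7 were below 0, and the median was -0.21. Within the regions it was 0.02, -0.29 and -0.68, so the gap was largest in the whole lung. Without the pneumonectomy whole lung array none of the 9 passed and the median was -0.11. In the gene-by-gene fit, H2-Ab1 differed by 0.07 ± 0.14 (adjusted p = 0.77), H2-Eb1 by 0.02 ± 0.13 (adjusted p = 0.93) and Cd74 by -0.04 ± 0.07 (adjusted p = 0.74). H2-Ab1 and H2-Eb1 encode chains of the classical class II molecules and Cd74 their invariant chain, which macrophages and dendritic cells also make. These genes were named outside the rule and do not stand for the rest of the list. Gm4759, listed as a transcribed pseudogene on chromosome 7 with close relatives, completes the 17, with 5.34 to 5.44 after pneumonectomy and 5.86 to 6.47 at day 0 (-0.88 ± 0.14, adjusted p = 0.024). It is dim as well, with its values after pneumonectomy below the array medians.

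Rbis was the gene that rose. Its protein takes part in the assembly of ribosomes. It read 7.07, 7.32 and 8.18 at day 56 after pneumonectomy, against 6.35, 6.49 and 6.66 at day 0 (1.02 ± 0.16, adjusted p = 0.024). The difference was 0.72 in the medial lobe, 0.83 in the cardiac lobe and 1.53 in the whole right lung, so it was largest in the array that stood apart. After sham it read 6.15, 6.49 and 7.09, and the difference of pneumonectomy from sham was 0.95 ± 0.16 (adjusted p = 0.010). In the days between, the difference from day 0 was -0.01 at day 3, 0.24 at day 7, 0.26 at day 14 and 0.43 at day 28, none past the threshold.

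The next rises by p did not pass. Outside predicted symbols and the small RNA list, they were in order Slc22a7, Mir24-2, C2cd4b, Erbb4, Itgbl1, Ceacam20, Rny1 and Reln. Only some of them are described here. Itgbl1, a secreted protein with integrin-like repeats, read 6.69, 7.34 and 7.98 after pneumonectomy, against 5.86, 6.17 and 6.59 at day 0 (1.13 ± 0.22, adjusted p = 0.055). C2cd4b, a nuclear protein of endothelium that inflammation induces, read 8.38, 8.70 and 8.70 after pneumonectomy, against 8.08, 7.62 and 7.95 at day 0 (0.71 ± 0.14, adjusted p = 0.055). Both had groups that did not overlap; 7.43% of all genes had all 3 pneumonectomy arrays above day 0. Erbb4, a receptor of the epidermal growth factor family, differed by 0.41 ± 0.08 (adjusted p = 0.055), and Reln, a secreted glycoprotein that lymphatic endothelium makes, by 0.60 ± 0.12 (adjusted p = 0.068).

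The sham arrays give the other reference at day 56. Sham and pneumonectomy are each set here against the same 3 day 0 arrays, so these values stand side by side and are not independent. Of the 17 lower genes, all 17 were also below day 0 after sham. The choice of genes that were high at day 0 sets much of this: of all 1585 genes lower at an unadjusted p under 0.05, 90.3% were below day 0 after sham, against 45.8% of all genes. In the sham comparison 7 of the 17 passed: Cxcl9, Cd3g, Gimap3, Ifi214, Cd3e, Cd96 and H2-Oa; 0.206% of all genes fell in that comparison. The differences of sham from day 0 ran from -1.74 for Cxcl9 to -0.33 for Irf9, with a median of -0.75, beside -0.89 for pneumonectomy. Compared directly, 16 of the 17 were lower after pneumonectomy than after sham, with a median difference of -0.25, as were 86.8% of the 1585 genes and 51.9% of all genes. None passed and 4 reached an unadjusted p under 0.05; 0.266% of all genes fell in that comparison, and 5.34% were lower at the unadjusted level. The differences from sham ran from -0.65 to 0.11, and their 95% intervals together reached from -1.20 to 0.71. Cxcl9 read 6.06, 6.26 and 6.39 after sham and differed from sham by 0.11 (95% interval -0.49 to 0.71). Ifit1 read 8.49, 8.40 and 8.20 after sham, between the other groups, and pneumonectomy differed from it by -0.40 (95% interval -0.70 to -0.11, adjusted p = 0.43).

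**Figure D2:**
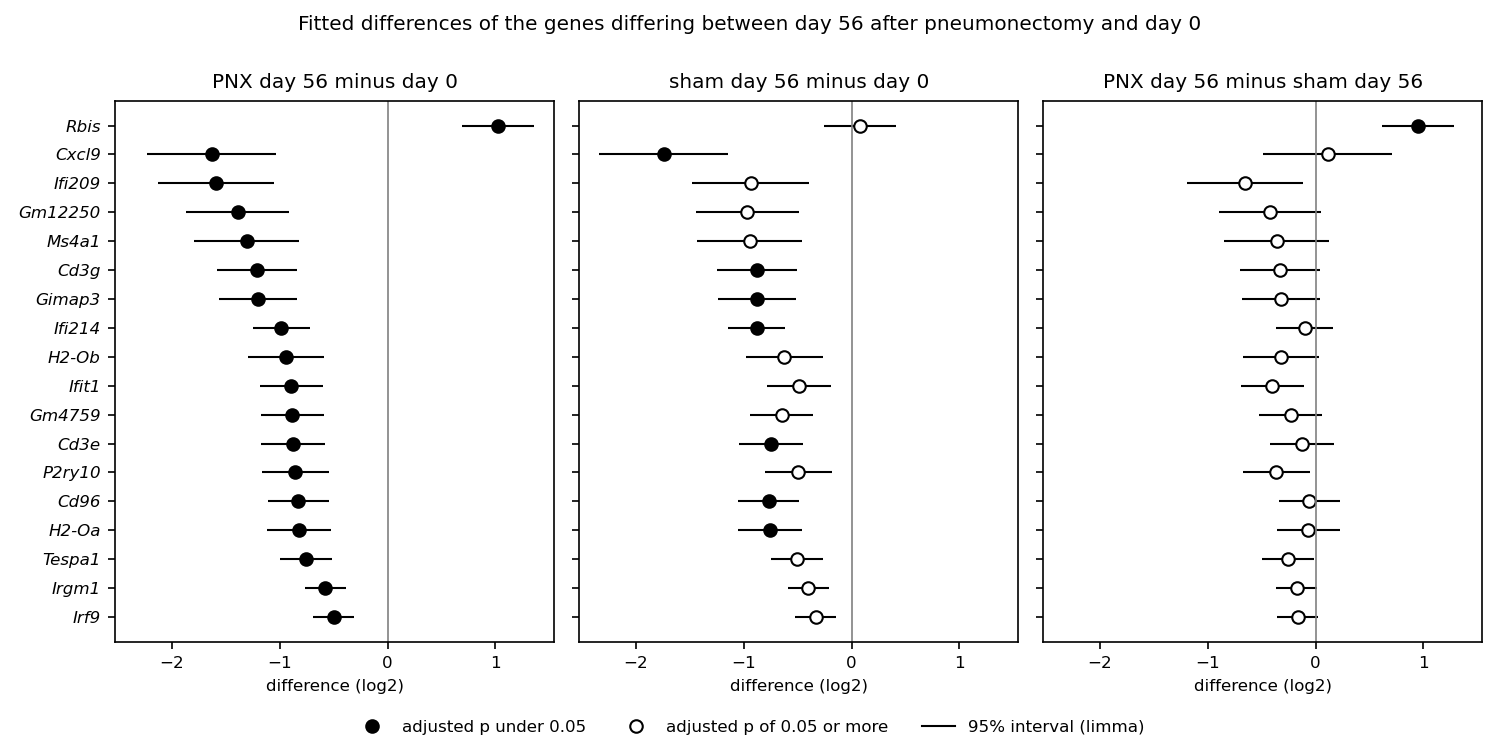
Fitted log2 differences of the 18 genes for pneumonectomy (PNX) day 56 minus day 0, sham day 56 minus day 0 and PNX minus sham, with 95% intervals from limma; filled points passed the threshold. The first panel chose the genes. In the second panel 7 points are filled, all left of 0, and in the third Rbis alone is filled.

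The lymphocyte lists showed the same layout. Of the 21 T and NK cell genes 3 fell after sham against day 0, with a median of -0.56, and none passed between pneumonectomy and sham, with a median of -0.05 and none at an unadjusted p under 0.05. Of the 17 B and plasma cell genes none passed after sham against day 0, with a median of -0.52. At an unadjusted p under 0.05, 10 of them were lower there, as were 5.0% of all genes. None of them passed between pneumonectomy and sham, with 1 higher (2.83% of all genes) and 1 lower at that level and a median of -0.18. Of the 20 interferon response genes 1 fell after sham (Cxcl9), with a median of -0.22, and none passed between pneumonectomy and sham, where 4 were lower at an unadjusted p under 0.05 and the median was -0.16.

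Across the course, day 0 had the highest mean of the 7 conditions for 16 of the 17 lower genes, for 65.7% of the 1585 genes lower at the unadjusted level and for 18.8% of all genes; Irgm1 was highest at day 3. The genes were chosen as high at day 0 against day 56, and these comparisons share the day 0 arrays as well. Of the 17 genes, 12 passed at day 3 (2.73% of all genes fell), 17 at day 7 (4.97%), 15 at day 14 (0.707%), none at day 28 (0.0%, 0 genes passed with limma and 1439 had an unadjusted p under 0.05), and 17 at day 56, the comparison that chose them. The median difference from day 0 over the 17 was -0.78 at day 3, -0.99 at day 7, -0.90 at day 14, -0.36 at day 28 and -0.89 at day 56. Ms4a1 differed from day 0 by -1.11, -1.92, -1.53, -0.36 and -1.31 at the 5 times. At day 28 its medial lobe array read 9.25, within the day 0 range of 9.07 to 9.28. H2-Oa followed with -0.92, -1.15, -0.98, -0.36 and -0.82. Ifit1 differed by -0.26, -0.51, -0.68, -0.68 and -0.89, with no return at day 28, and Cxcl9 by -1.34, -1.14, -1.84, -1.27 and -1.63.

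**Figure D3:**
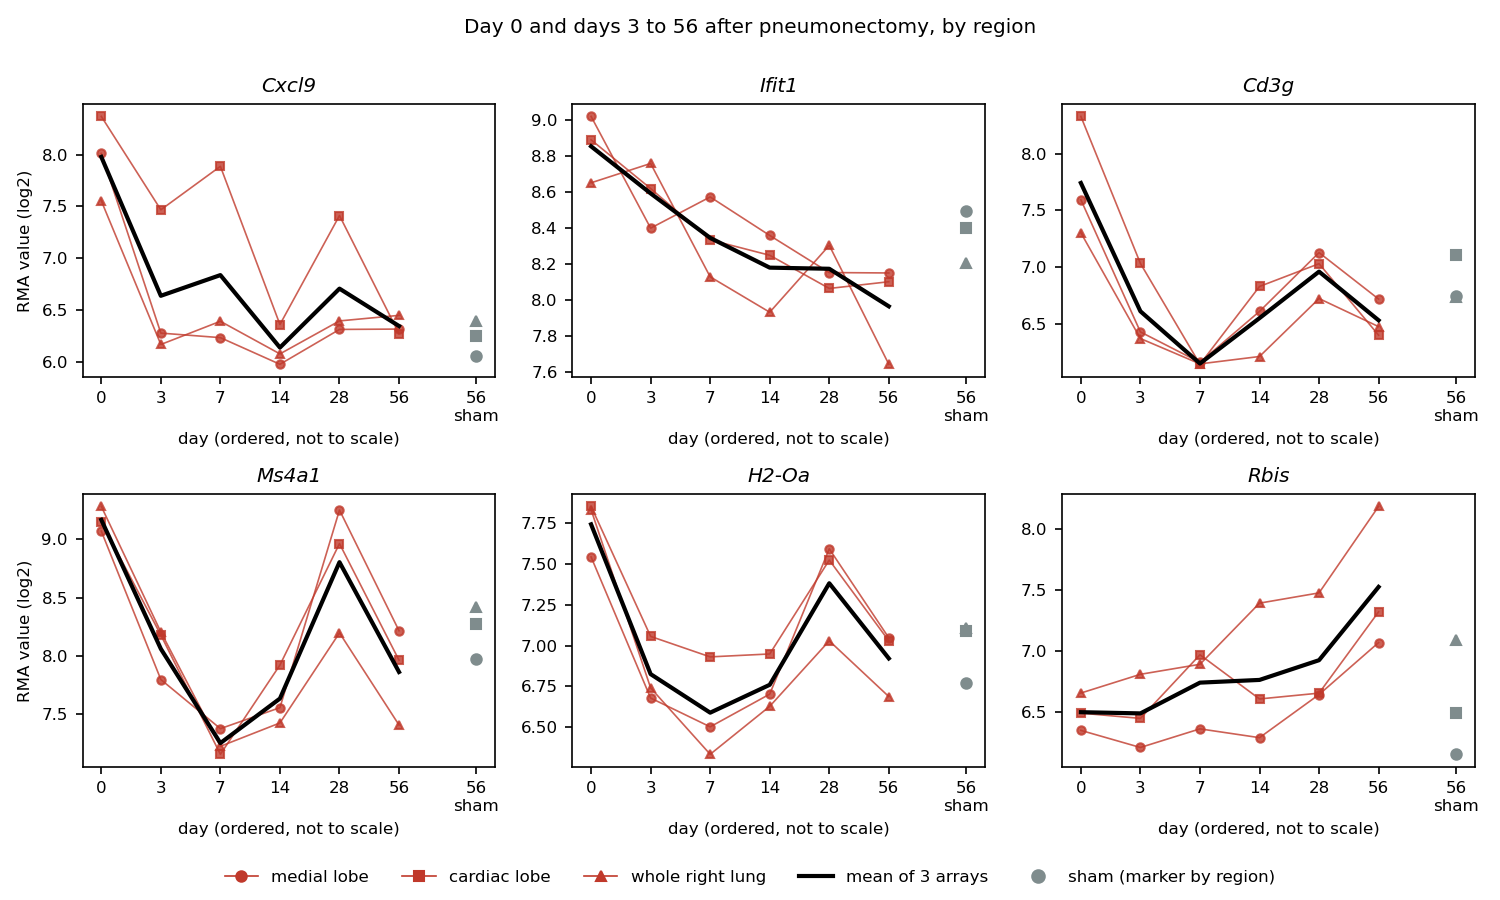
Log2 RMA values of 6 genes at day 0 and at days 3 to 56 after pneumonectomy, by region (thin red lines and symbols) with the mean of 3 arrays (black), and the day 56 sham arrays in grey on the right. Ms4a1, Cd3g and H2-Oa read highest at day 0, low at days 3 to 14 and higher at day 28 than at day 56; Rbis is highest at day 56.

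Between day 56 and day 28 after pneumonectomy 0 of 19938 genes passed with limma (0.0%), with 1104 at an unadjusted p under 0.05 (5.54%), 507 higher (2.54%) and 597 lower (2.99%). Ms4a1 differed by -0.94 between these days (adjusted p = 0.76) and H2-Ob by -0.78 (adjusted p = 0.76). The smallest adjusted p was 0.12, that of Angptl4, a secreted inhibitor of lipoprotein lipase, with a difference of -0.87. Angptl4 read 7.22, 7.16 and 7.10 at day 56 after pneumonectomy, 8.16, 8.38 and 8.18 after sham and 8.0, 7.76 and 7.83 at day 0. It passed against sham (-1.08 ± 0.13, adjusted p = 0.00065) and just missed against day 0 (-0.70 ± 0.13, adjusted p = 0.053), and its pneumonectomy arrays overlapped with neither group.

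Genes that define the growth phase did not pass at day 56. Of 24 mitosis genes none passed at day 56 against day 0, 3 were lower at an unadjusted p under 0.05 and 23 were below 0, with a median of -0.32. Without the pneumonectomy whole lung array 8 were lower at that level, all 24 were below 0 and the median was -0.43. Ccna2, a cyclin of S phase and mitosis, had differed by 1.93 at day 3 and 1.63 at day 7; at day 56 it read 7.02, 6.91 and 6.61, against 7.46, 7.73 and 7.17 at day 0 (-0.61 ± 0.25, adjusted p = 0.32). Of 25 DNA replication genes none passed, 6 were lower at an unadjusted p under 0.05 and the median was -0.22. After sham, against the same day 0 arrays, the median of the DNA replication list was -0.20. That of the mitosis list was -0.16 after sham, with 23 of 24 genes below 0 and none at an unadjusted p under 0.05. Averaged over the mitosis list, the arrays read 6.01, 6.02 and 6.10 at day 56 after pneumonectomy, against 6.37, 6.49 and 6.17 at day 0, so the gap was in the lobes and small in the whole lung.

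Inflammation and matrix genes that were high early in the course did not pass at day 56 either. Saa3, an acute phase apolipoprotein, had differed by 5.30 at day 3 and differed by 0.78 ± 0.56 at day 56 (adjusted p = 0.46). Timp1, an inhibitor of metalloproteinases, read 7.99, 8.42 and 9.18 at day 56 after pneumonectomy, against 7.59, 7.80 and 7.93 at day 0 (0.75 ± 0.23, adjusted p = 0.25), after 3.52 at day 3. Prg4, the lubricant of serosal surfaces, read 6.65, 6.38 and 8.57 at day 56, against 5.44, 5.46 and 6.65 at day 0 (1.35 ± 0.44, adjusted p = 0.28). Saa3, Prg4 and Arg1 were all highest in the whole lung array, where Arg1, an arginine-degrading enzyme of macrophages, read 7.95, against 5.67 and 5.74 in the lobes. Of 25 fibrillar and elastic matrix genes none passed, 1 was higher and 2 lower at an unadjusted p under 0.05, and the median was 0.14. Without the pneumonectomy whole lung array the median was -0.03, with 11 above and 14 below 0. Col1a1, the main chain of collagen type I, read 8.37, 8.62 and 10.06 at day 56, against 8.06, 8.75 and 8.84 at day 0 (0.47 ± 0.40, adjusted p = 0.52). Eln, which encodes elastin and had differed by 1.97 at day 14, differed by 0.11 ± 0.35 (adjusted p = 0.87).

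Genes of the cells that make up the alveolus did not pass either. Of 18 alveolar type II genes none reached even an unadjusted p under 0.05, with a median of 0.00, and Sftpc differed by 0.00 ± 0.07. Of 15 alveolar type I genes none passed and 1 was higher at an unadjusted p under 0.05, with a median of -0.08, and Ager differed by -0.08 ± 0.10. Of 21 endothelial genes none passed and 1 was higher at an unadjusted p under 0.05, with a median of 0.04, but the regions differed, with medians of 0.34 in the medial lobe, -0.12 in the cardiac lobe and -0.16 in the whole lung. The median standard error over all genes was 0.11, and the called difference smallest in size was -0.50, that of Irf9. In simulated data 55 of 100 genes shifted by log2 0.5 and 96 of 100 shifted by log2 1 were recovered. That simulation gave every array the same spread and shifted more genes than passed here, which loosens the adjusted threshold. Recovery in the measured data may therefore be lower, and differences of log2 0.5 or less may often go uncalled.

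Some lists stood away from 0 without a called member, and in several the whole lung array stood farthest from 0. Of 59 small RNA genes, 42 were higher at an unadjusted p under 0.05 (6.25% of all genes were) and none passed. The median was 1.14, and by region 0.33, 0.56 and 1.84, the last in the whole lung array. Without that array 15 of the 59 reached the unadjusted level and the median was 0.50. Of 15 adipocyte genes all were below 0 with a median of -0.45, made up of -0.23 and 0.19 in the lobes and -1.05 in the whole lung, and it was -0.26 without the whole lung array. Averaged over that list, the arrays read 7.80, 7.73 and 7.77 after pneumonectomy, against 8.03, 7.61 and 9.02 at day 0. Of 18 ciliated cell genes, 8 were lower and 1 higher at an unadjusted p under 0.05, with a median of -0.37 and region medians of -0.44, -0.03 and -0.62. Without the whole lung array 3 of the 18 were lower at that level and the median was -0.20. After sham, against the same day 0 arrays, 8 of the 18 were lower at that level (5.0% of all genes were), with a median of -0.35. Between pneumonectomy and sham the median of the ciliated list was -0.01. Sham medians against day 0 were 0.52 for the small RNA list and -0.27 for the adipocyte list. Dnah5, a motor protein of cilia, read 8.41, 8.34 and 8.51 after pneumonectomy, against 9.09, 8.53 and 9.28 at day 0 (-0.55 ± 0.17, adjusted p = 0.26). Whether the share of large airway or fat in the pieces differed was not tested.

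**Figure D4:**
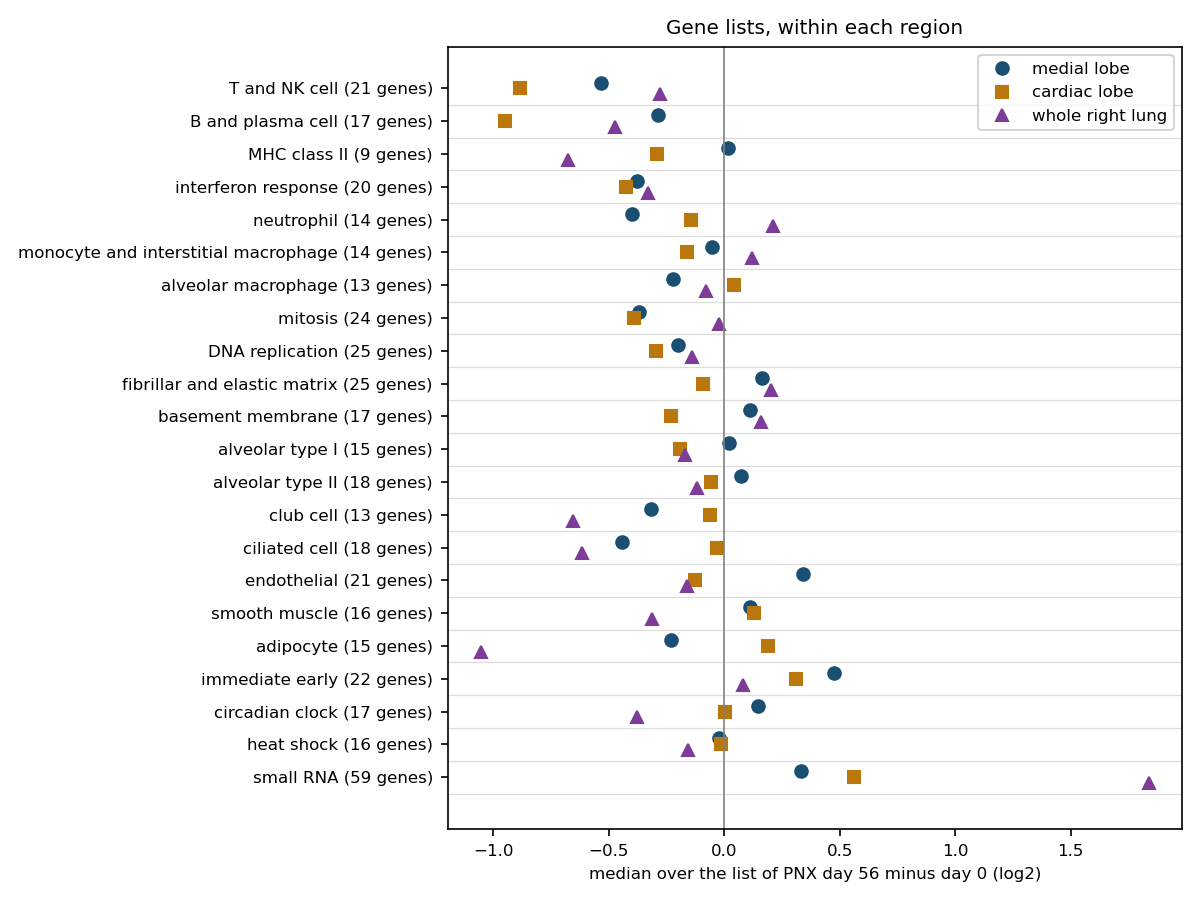
Median over each of 22 gene lists of the log2 difference between day 56 after pneumonectomy and day 0, within the medial lobe (circles), cardiac lobe (squares) and whole right lung (triangles). The T and NK cell, B and plasma cell and interferon lists lie below 0 in each region, whereas the adipocyte and small RNA medians are far from 0 mainly in the whole lung.

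The regions agreed only in part across all genes. Pearson's r between regions of the difference from day 0, across genes that are not independent, was 0.20 for medial with cardiac lobe and 0.27 for each lobe with the whole lung. Differences of at least 2-fold numbered 21 higher and 17 lower in the medial lobe, 24 higher and 69 lower in the cardiac lobe, and 166 higher and 501 lower in the whole lung. Cxcl9 and Ifi209 were the 2 genes at least 2-fold lower in every region.

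Set directly against sham at day 56, 67 genes passed (0.336%), 14 higher (0.0702%) and 53 lower (0.266%), and the leading ones were genes of the circadian clock. Dbp, a clock-driven transcription factor, read 10.44, 10.38 and 9.62 after pneumonectomy, against 8.14, 7.92 and 7.08 after sham (2.43 ± 0.22, adjusted p = 6.35e-05). Arntl, the core activator of the clock, read 5.98, 5.68 and 5.95 after pneumonectomy, against 8.35, 8.40 and 8.01 after sham (-2.38 ± 0.14, adjusted p = 2.39e-07). Both stood near their day 0 level after pneumonectomy, with Dbp at 10.23 to 10.26 and Arntl at 6.11 to 6.21 at day 0. Of 17 clock genes 8 were higher and 1 lower after pneumonectomy than after sham, and 1 was higher and 9 lower after sham than at day 0, where 0.176% of all genes rose and 0.206% fell. None of the 17 passed between pneumonectomy at day 56 and day 0, with a median of -0.10 and none at an unadjusted p under 0.05. Sources used here do not give the hour of collection. The letters CACGTG, the E-box that clock activators bind, were in a promoter of 5 of the 15 clock genes in the table and of 8.09% of all genes there.

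Heat shock genes also passed in the comparisons with sham, and not between pneumonectomy and day 0. Of 16, 5 were lower after pneumonectomy than after sham, 4 were higher after sham than at day 0, and none passed between pneumonectomy and day 0, with medians of -0.36, 0.38 and -0.04. Hsph1, a large heat shock protein, read 8.21, 7.96 and 8.45 after pneumonectomy, 9.56, 9.15 and 9.86 after sham and 8.29, 8.03 and 8.26 at day 0, so the sham arrays stood above both other groups. The letters GAANNTTC, facing units of the heat shock element, were in a promoter of 8 of the 13 genes of the list in the table and of 9.04% of all genes there. Outside these lists, Spon2, a secreted matrix protein, read 5.43, 5.61 and 6.03 after pneumonectomy, against 7.77, 8.30 and 7.94 after sham (-2.31 ± 0.34, adjusted p = 0.0040). Npr3, a clearance receptor of natriuretic peptides, read 8.84, 8.87 and 8.34 after pneumonectomy, against 9.86, 10.28 and 9.92 after sham (-1.34 ± 0.17, adjusted p = 0.00086). None of these 3 genes overlapped between pneumonectomy and sham, and 4.29% of all genes had all 3 pneumonectomy arrays below sham. Spon2 and Npr3 were named from that comparison itself, and Hsph1 from sham against day 0, which shares the sham arrays.

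**Figure D5:**
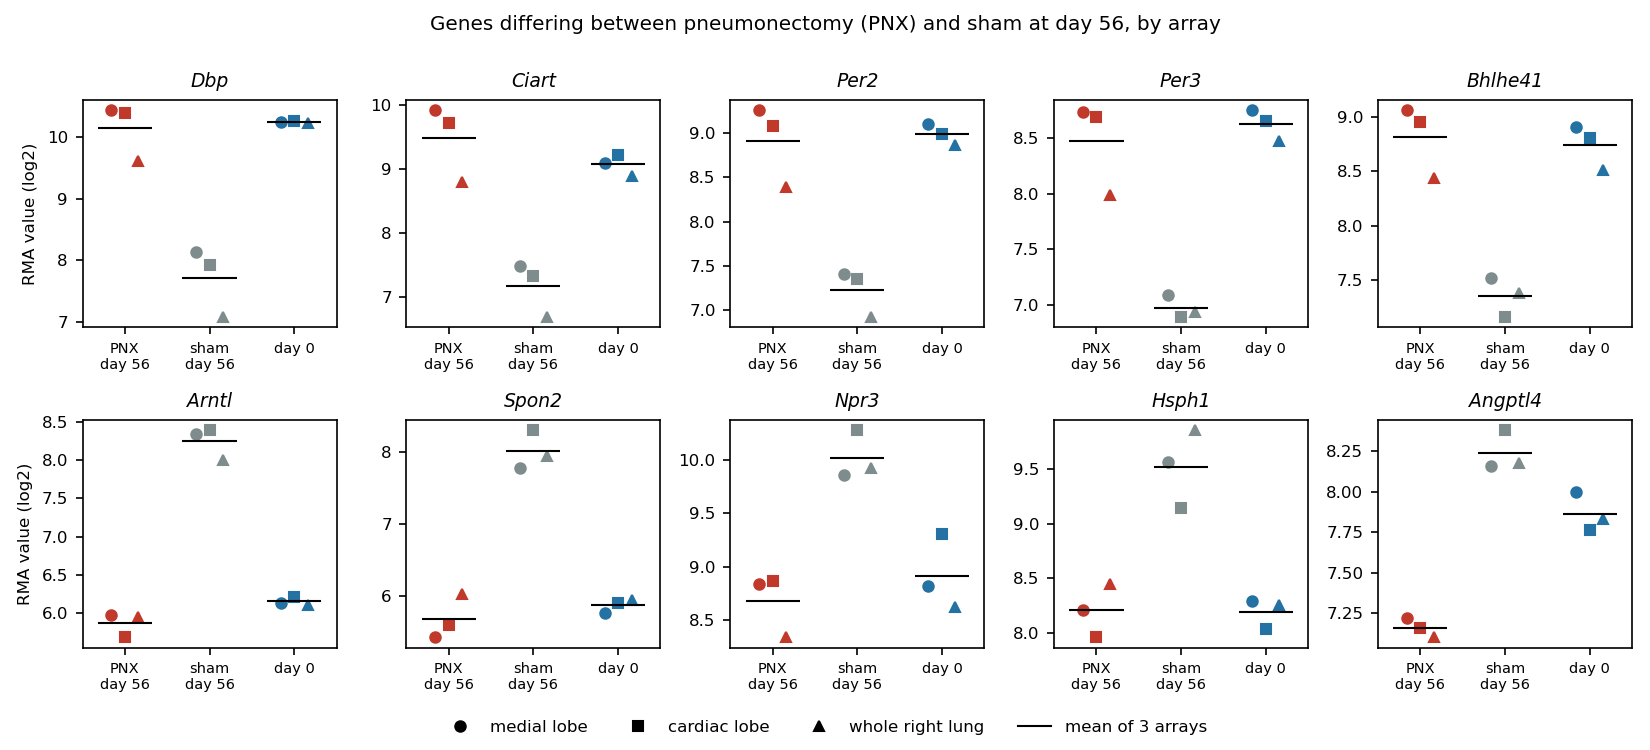
Log2 RMA values of 10 genes that passed between pneumonectomy (PNX) and sham at day 56, with 3 arrays each for PNX day 56, sham day 56 and day 0; symbols mark the region, black lines the mean, and the y axes differ. For the clock genes and Hsph1 the sham arrays stand apart from both PNX and day 0, whereas Angptl4 is lowest after PNX.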

How the data were processed

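The deposited table holds 1 log2 value for each of 35556 probe sets on 21 arrays, made by the authors with RMA (background correction, normalization between arrays and summary of probes), per the submitters' processing notes; RMA's version, its settings and a genome build are not given in the sources used. Per the labels' protocols RNA was amplified from its 3′ end, but the probe annotation belongs to a whole-transcript array; this was not settled. Of the probe sets, 21789 had 1 gene symbol, 1621 several and 12146 none. Symbols were updated by gene number (21698 matched) to GRCm38.p6. For the 999 genes with several probe sets the one with the highest mean was kept, leaving 19938 genes, with no filter on dim ones.

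In limma 3.58.1 (R 4.3.3), 1 linear model of condition plus region took in all 21 arrays (lmFit and eBayes, 12 residual degrees of freedom), with Benjamini-Hochberg adjustment over all genes at 0.05; 12 is also the number of largest rises and falls named. Regions pair the arrays by the labels. Errors after ± are standard errors and intervals are 95%. Other comparisons were day 56 pneumonectomy with sham, sham with day 0 and day 56 with day 28. Alternatives changed the arrays, the region term, the moderation, the weights, the centring and the probe set rule. Simulated data tested the procedure; 12 unchanged genes were called there. Named genes were those 12, filled by p to 12 where fewer passed, 5 each way in other comparisons, and up to 4 passing members of each list, or the 2 with the smallest p, with predicted and small RNA symbols passed over; others are said to have been picked after their values were seen. The genes of the earlier course and the members and 46 lists were chosen with earlier results of these data known. H2-Ab1, H2-Eb1, Cd74, Mzb1, Xbp1, Sdc1 and Nr4a2 were named outside the rule. The number of arrays limits the precision, and the regions of a condition may share animals.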

Additional observations from a re-analysis of the deposited data

Results flagged for a closer look

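In the cardiac lobe, the day 7 pneumonectomy array had an interquartile range of 3.55 (log2), and its gap to the next of 7 arrays was larger than Dixon's critical value; chance flags about 1 in 20 such groups. It enters the comparisons of day 56 through the shared estimate of spread alone.

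Of the 67 genes that passed in the direct limma contrast of pneumonectomy with sham at day 56, the 12 given here are among the named genes. Clock genes led the higher ones: the difference was 2.43 for Dbp, 2.31 for Ciart, 1.68 for Per2, 1.50 for Per3 and 1.47 for Bhlhe41, all on the log2 scale. Among the lower ones it was -2.38 for Arntl, -2.31 for Spon2, -1.50 for Fam124b, -1.34 for Npr3 and -1.33 for Rasl11a. The other 2 were Rbis (0.95), which also passed against day 0, and Angptl4 (-1.08), which did not.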

How the results depend on the processing

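No named gene that passed changed direction under any alternative run, but calls and counts were not stable. The alternatives reuse the same arrays, and these genes had the same sign in every region, so a change of direction was unlikely from the start. Against day 0, 182 of 301 values of the 18 genes no longer passed. Of the 18, 5 (Ifi214, Gimap3, Cd96, Tespa1 and Gm4759) have no value where genes with a mean under 6 are left out. Against sham 2 of 170 values no longer passed. These cover only the 5 largest each way of the 67 genes called there, so the shares cannot be compared. Counts below are of all genes called, with those shared with the main calls in brackets. Against day 0 the model called 18; it called 1 without the region term (no pairing by region; 1 shared), 1 with only the 6 arrays compared (0), 2 with the 9 arrays of day 0 and day 56 (1), 4 with the lobes alone (2), 7 without the day 7 cardiac and pneumonectomy whole lung arrays (6; added after seeing the data where lists are counted), 2 with the small RNA mean as covariate (2), 41 with trend and robust moderation (18) and 400 with array weights (18; 93 higher, 307 lower). Leaving out single arrays gave 0 to 27. With arrays centred on their medians the split was 3 higher and 13 lower, beside 1 and 17. Against sham it called 67, and 30 without the region term (30), 32 with 6 arrays (23), 33 with 9 arrays (28), 116 without the 2 arrays (58), 889 with weights (67), and 29 to 75 leaving out single arrays. For sham against day 0 it called 76, and 32 without the region term (32), 139 with 6 arrays (46), 25 with 9 arrays (23), 342 without the 2 arrays (76), 433 with weights (76), 134 with the covariate (65), and 23 to 89 leaving out single arrays; centring gave 60 higher and 36 lower, beside 35 and 41. Between days 56 and 28 it called 0, and 2 with the lobes alone, 158 with weights, and 0 to 1 leaving out single arrays. The cause of these shifts was not tested, except that fits with fewer arrays have fewer degrees of freedom.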

Other observations

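Jchain, Fos, Rny1 and Snord73b stood at least 2-fold higher at day 56 after pneumonectomy than at day 0 in every region without passing, and were picked for that after their values were seen. Jchain, the 1 gene of the B and plasma cell list above 0, read 8.51, 9.12 and 9.93 after pneumonectomy, against 6.38, 7.31 and 7.87 at day 0 (2.0 ± 0.60, limma adjusted p = 0.24). After sham it read 6.27, 7.04 and 7.57, so the arrays after pneumonectomy lay above those of both other groups (2.23 ± 0.60 against sham, adjusted p = 0.20). Other plasma cell genes did not pass and lay nearer 0: Mzb1 differed from day 0 by -0.05 ± 0.25 (adjusted p = 0.92), Xbp1 by -0.09 ± 0.08 (adjusted p = 0.56) and Sdc1 by -0.14 ± 0.12 (adjusted p = 0.55).

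Fos, an immediate early transcription factor, read 9.60, 9.73 and 9.40 after pneumonectomy, 8.88, 8.86 and 7.64 after sham and 8.55, 8.16 and 8.01 at day 0 (1.33 ± 0.40 against day 0, adjusted p = 0.25). Of 22 immediate early genes none passed, and the median was 0.21. At an unadjusted p under 0.05, 7 were higher (6.25% of all genes were) and none lower (7.95% of all genes). Egr1 differed by 0.82 ± 0.24 (adjusted p = 0.23) and Ier2 by 0.72 ± 0.17 (adjusted p = 0.15), whereas Nr4a2 differed by -0.31 ± 0.44 (adjusted p = 0.71).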
